A study of Homo sapiens with 4 samples.

Results

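The genes described here encode heterogeneous nuclear ribonucleoproteins (hnRNPs) and serine/arginine-rich splicing factors (SR proteins, gene symbols SRSF), measured on Affymetrix U133 Plus 2.0 arrays in 2 breast cancer cell lines. They were taken by symbol: every probe set whose annotation names 1 gene only, with a symbol that starts with HNRNP or with SRSF and a digit, pseudogenes left out. This gave 30 genes with 116 probe sets, of 19775 genes with 41097 probe sets that name 1 gene and of 54675 probe sets on the array. There were 20 HNRNP genes with 73 probe sets, which include HNRNPD-DT, a long noncoding RNA gene named for its neighbour HNRNPD, and 10 SRSF genes with 43 probe sets.

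hnRNPs coat nascent RNA in the nucleus and, depending on where they bind, favour or block the use of nearby exons, and several also act in RNA export, stability and translation. SR proteins carry RNA-recognition motifs and a domain rich in arginine-serine repeats, bind enhancer elements in exons and help to recruit the spliceosome to splice sites. Many genes of both families regulate their own transcripts through alternative exons that lead to nonsense-mediated decay, so that 1 gene can yield transcripts with different ends and fates.

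The study treated cells with JPH203, an inhibitor of the amino acid transporter LAT1 (SLC7A5), to find transcripts that respond to it. The 4 arrays were MDA-MB-231 cells, a triple-negative line with mesenchymal features, with 100 µM JPH203 for 24 h or with the vehicle Captisol at the same concentration as control, and the luminal, estrogen receptor-positive line T-47D, with JPH203 or with Captisol in the same way. Total RNA was labelled for each array, and each condition had 1 array, so no ratio below has a replicate error or a p-value. Values are signal intensities on a linear scale, scaled per array, and a ratio is the signal with JPH203 over the signal in the control unless said otherwise. A probe set was compared where its signal reached 100 on both arrays, and was called higher at a ratio of 2 or more and lower at 0.5 or less. In bulk RNA, fewer cells of a kind and less RNA per cell cannot be told apart.

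On the control arrays, 10 of 10 luminal marker genes were higher in T-47D by 2-fold or more, and 7 of 9 mesenchymal markers were higher in MDA-MB-231 by that measure. All 9 mesenchymal markers were below a signal of 100 in T-47D, and 2 of them, CDH2 and SPARC, were below it in MDA-MB-231 as well. Between 10831 and 11857 probe sets reached 100 on an array. The ratio of 3′ to 5′ signal of ACTB, a measure of RNA integrity, was 1.72 with JPH203 and 1.39 in the control of T-47D, against 1.44 and 1.45 in MDA-MB-231. The same ratio of GAPDH went the other way in T-47D, at 0.867 with JPH203 and 0.940 in the control, against 1.01 and 0.987 in MDA-MB-231. The 24 probe sets of poly-A control RNAs, which are spiked into samples before labelling, had a geometric mean ratio of 1.56 in T-47D and 0.927 in MDA-MB-231, and of 0.307 for the MDA-MB-231 control over the T-47D control. The part of these differences in the results below was not tested.

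To show the regulatory sequence of genes that the results in T-47D turn on, the 120 bases before the start of 4 of them follow, 5′ to 3′ on the gene's strand, from RefSeq promoters on GRCh38.p14. HNRNPM (chr19:8444855-8444974, plus strand), HNRNPU (chr1:244864544-244864663, minus strand) and SRSF1 (chr17:58007247-58007366, minus strand) had lower signals with JPH203 in all their compared probe sets, and SRSF3 (chr6:36594242-36594361, plus strand) had higher signals in all of its own, relative to the overall signal of the array. Capitals mark matches on either strand to CCAAT (the CCAAT box), to GGGCGG (the GC box) and to TATAAA (the TATA box).
HNRNPM: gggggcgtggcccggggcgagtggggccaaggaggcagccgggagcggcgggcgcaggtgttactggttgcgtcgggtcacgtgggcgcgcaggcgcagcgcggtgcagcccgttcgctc
HNRNPU: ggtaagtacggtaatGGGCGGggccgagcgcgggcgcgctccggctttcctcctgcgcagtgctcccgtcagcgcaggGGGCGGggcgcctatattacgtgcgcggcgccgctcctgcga
SRSF1: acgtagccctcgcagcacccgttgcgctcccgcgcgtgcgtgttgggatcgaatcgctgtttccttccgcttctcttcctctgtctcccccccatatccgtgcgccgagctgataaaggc
SRSF3: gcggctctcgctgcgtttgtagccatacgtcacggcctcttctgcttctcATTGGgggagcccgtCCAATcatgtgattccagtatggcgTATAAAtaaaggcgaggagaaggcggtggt

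All 4 stretches are rich in CG dinucleotides, and only that of SRSF3 holds the TATAAA letters. Over the 250 bases before the start, RefSeq gave 43 promoters for 29 of the 30 genes, with a median of 25 CG dinucleotides, against 11 over all 35116 promoters. CCAAT, searched on both strands, stood in 20 of the 43 (46.5%) and in 32.0% of all promoters, GGGCGG in 25 (58.1%) and 42.6%, and TATAAA in 6 (14.0%) and 10.7%. TGATGNAA, the letters searched for the amino acid response element that ATF4 binds, stood in 0 of the 43 and in 3.14% of all promoters, and the cyclic AMP response element letters TGACGTCA in 0 of the 43 and in 1.65%. A match is a description of the letters and not a binding site, and a missing match says only that these letters are not in this window.

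With JPH203, 68 probe sets could be compared in MDA-MB-231 (48 HNRNP and 20 SRSF) and 62 in T-47D (42 and 20), in 28 genes each. The 6 probe sets that passed only in MDA-MB-231 were all HNRNP ones, and none passed only in T-47D. Over the array, too, more probe sets naming a single gene could be compared in MDA-MB-231 (10194) than in T-47D (9143). How many of all probe sets passed in a single line only was not counted. The other 48 HNRNP and SRSF probe sets passed in neither line, among them all those of HNRNPD-DT and of SRSF12. HNRNPD-DT and SRSF12 thus have no ratio here. HNRNPD-DT had signals of 19.7 with JPH203 and 20.5 in the control of MDA-MB-231, and of 48.5 and 20.6 in T-47D, all below the minimum.

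In MDA-MB-231, none of the 68 probe sets was called higher and none lower. Over all 10194 probe sets compared, 0.0981% were called higher and 0.00981% lower, so calls were rare in this line altogether. The ratios of the splicing factors ran between 0.742 and 1.67, with a median log2 ratio of -0.07 (a ratio of 0.954), beside -0.01 (0.995) over all probe sets. Of the 68, 64 were within 1.25-fold of the control. Of the 68, 51 (75%) were below the control, beside 51.8% of all probe sets, and 18 of the 20 SRSF probe sets were among them. The direction depended on the scaling: scaled on the poly-A control RNAs, which adds 0.11 to every log2 ratio of this line, the median was 0.043, beside 0.10 over all, and 22 of 68 were below the control, beside 26.6% of all.

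**Figure D1:**
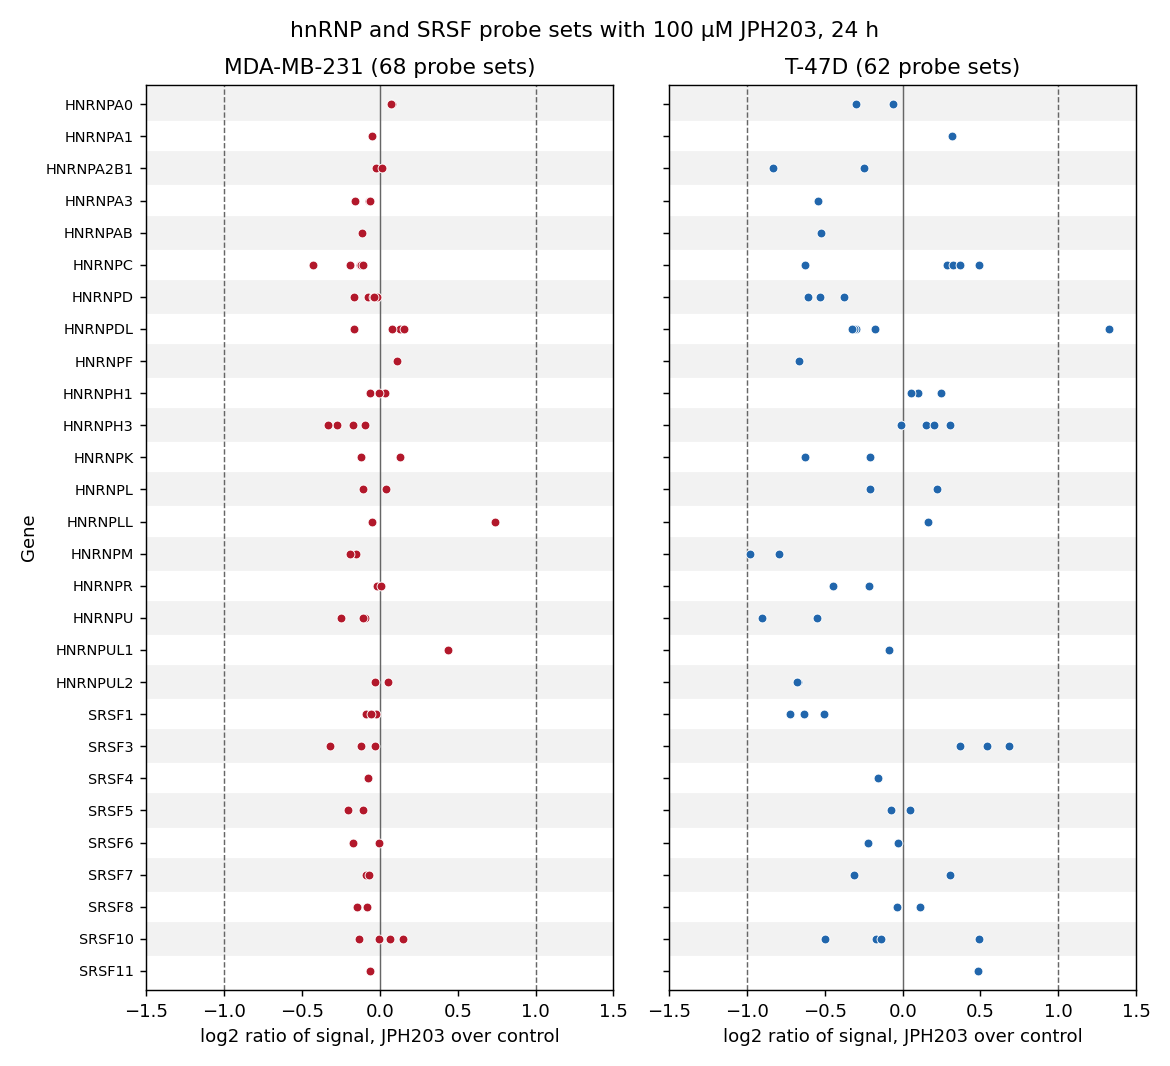
Each point is 1 probe set of a gene (rows), placed by its log2 ratio of signal with JPH203 over control, in MDA-MB-231 (left, 68 probe sets) and T-47D (right, 62), with dashed lines at 2-fold. The points lie close to 0 in MDA-MB-231 and spread wider in T-47D, where 1 HNRNPDL probe set, at a ratio of 2.50, stands beyond the line.

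The probe sets farthest from 1 in MDA-MB-231 were HNRNP ones. HNRNPLL, a regulator of CD45 exon choice in lymphocytes, had a signal of 293.2 with JPH203 and 175.8 in the control at 225385_s_at (ratio 1.67). Its other compared probe set, 225386_s_at, had 535.8 with JPH203 and 555.7 in the control (0.964). The 2 readings of the gene thus lay on opposite sides of the control. It was the 1 splicing factor probe set at or past 1.5-fold in this line, against a share of 0.628% higher and 0.304% lower at 1.5-fold over all probe sets.

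HNRNPUL1, a protein related to hnRNP U that acts in the response to DNA damage, had 976.4 with JPH203 and 721.5 in the control at 208713_at (1.35). HNRNPC, which binds uridine tracts and restrains the exonization of Alu elements, had 2343.3 with JPH203 and 3158.6 in the control at 212626_x_at (0.742), the lowest ratio of the 68. HNRNPH3 210588_x_at followed with 705.4 and 887.3 (0.795). Set beside the central 95% of the 500 probe sets of most similar signal, HNRNPLL 225385_s_at and HNRNPUL1 lay above that range and HNRNPC 212626_x_at below it, while the others lay inside. With 2 above and 1 below of 68, this is near the share that such a range leaves out.

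In MDA-MB-231, 16 of 28 genes had all their compared probe sets below the control, 3 had all above, and 9 had some on each side. All 5 HNRNPC probe sets were below the control (0.742 to 0.926), as were all 4 of HNRNPH3 (0.795 to 0.937). Of the SRSF genes, SRSF3, whose product binds pyrimidine-rich sites and links splicing to export, had 970.4 with JPH203 and 1210.1 in the control at 208673_s_at (0.802), the lowest ratio of that family, while its other readings were 0.919 and 0.978. SRSF10, a splicing repressor that is activated by loss of phosphate groups, was the 1 SRSF gene with readings on both sides (0.912 to 1.11).

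In T-47D, 1 of the 62 probe sets rose past 2-fold and none fell past it, beside 2.17% higher and 2.43% lower over 9143 probe sets. The median log2 ratio was -0.17 (0.886), beside -0.03 (0.978) over all. It was -0.23 (0.852) for HNRNP and -0.05 (0.963) for SRSF probe sets, and 40 of 62 (64.5%) were below the control, beside 52.5% of all. At 1.5-fold, 12 probe sets in 9 genes were lower (19.4%, background 13.8%), namely of HNRNPA2B1, HNRNPC, HNRNPD, HNRNPF, HNRNPK, HNRNPM, HNRNPU, HNRNPUL2 and SRSF1, and 2 were higher (3.23%, background 11.2%). Scaling on the poly-A control RNAs in place of overall signal lowers every log2 ratio of T-47D, with a shift of -0.64. At 2-fold, this gave 0 higher and 20 lower in place of 1 and 0, with 26.1% of all probe sets lower. The median was then -0.82, beside -0.68 over all, and 60 of 62 were below the control, beside 91.1% of all, so nearly all T-47D ratios above 1 in the text below lie under 1 with that scaling.

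**Figure D2:**
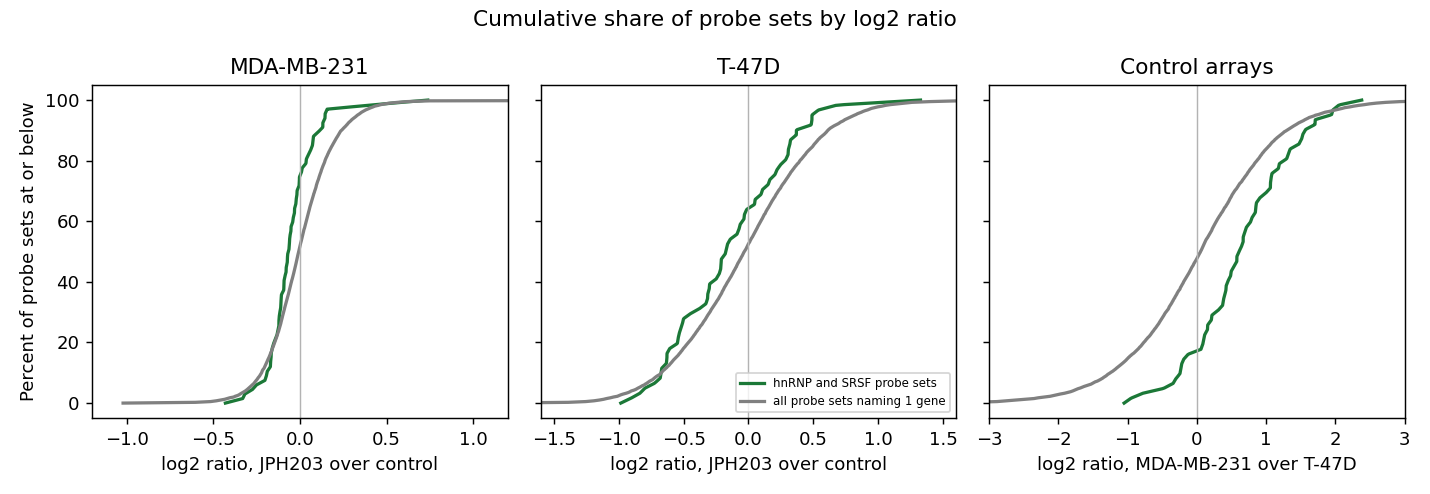
Cumulative percent of probe sets (vertical axis) at or below each log2 ratio (horizontal axis) for the HNRNP and SRSF probe sets (green) and all probe sets naming 1 gene (grey), in MDA-MB-231, T-47D and the control arrays. The splicing factors lie left of the grey curve over most of its course with JPH203 (medians of -0.07 and -0.17) and right of it for the MDA-MB-231 control over the T-47D control (median 0.61).

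The called probe set was of HNRNPDL, a paralogue of HNRNPD that controls its own level through alternative splicing of its 3′ region. HNRNPDL 212454_x_at had 297.8 with JPH203 and 118.9 in the control of T-47D (2.50), above the range of 0.472 to 2.01 for probe sets of similar signal. The gene's other 4 compared probe sets were lower than the control, at 0.797 to 0.883, among them 209067_s_at with 1187.1 and 1344.1. The call rests on 1 reading of 5, close to the minimum in the control, and the suffix _x_at marks probe sets that may also bind other transcripts.

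Within the A/B group of hnRNPs, HNRNPA2B1, a protein that binds RNA for splicing and transport, had 2520.9 with JPH203 and 4496.0 in the control of T-47D at 205292_s_at (0.561). This was below the range of 0.629 to 2.11 of probe sets of similar signal, and 225932_s_at of the same gene had 748.9 and 889.6 (0.842). HNRNPD (AUF1), which binds AU-rich elements and speeds mRNA decay, had ratios of 0.657, 0.691 and 0.770 at its 3 compared probe sets, the first with 1420.3 and 2161.4. A further HNRNPD probe set, 221480_at, had 97.2 with JPH203 and 165.8 in the control, and fell under the minimum with JPH203 alone. HNRNPA3 (0.687), HNRNPAB (0.697) and both HNRNPA0 probe sets (0.813 and 0.957) were also below the control. HNRNPA1, the classical antagonist of SR proteins at exon silencers, had 1220.3 with JPH203 and 979.0 in the control (1.25) at its 1 compared probe set. The readings of the group thus did not all lie on the same side. Brighter probe sets that name HNRNPA1 with pseudogenes or relatives were at 1.02 (200016_x_at) and 1.07 (213356_x_at).

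The lowest ratios were those of HNRNPM and HNRNPU. HNRNPM, a regulator of exon choice in the epithelial to mesenchymal transition, had 849.2 with JPH203 and 1678.2 in the control of T-47D at 200072_s_at (0.506). Its second probe set, 1555844_s_at, had 1306.9 and 2270.8 (0.576). Both readings were thus between 1.5-fold and 2-fold lower, both below the range of probe sets of similar signal (from 0.552 and 0.578), and the first stood just short of the threshold. Of all 62 probe sets compared in T-47D, 1 lay above its range and 3 below, near the share that such a range leaves out. HNRNPU, a scaffold-attachment protein that binds chromatin and RNA, had 670.8 with JPH203 and 1254.3 in the control at 200593_s_at (0.535). At 200594_x_at it had 3074.2 and 4492.7 (0.684). Its relative HNRNPUL2 had ratios of 0.624 and 0.627 at both of its probe sets, while HNRNPUL1 had 0.941.

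**Figure D3:**
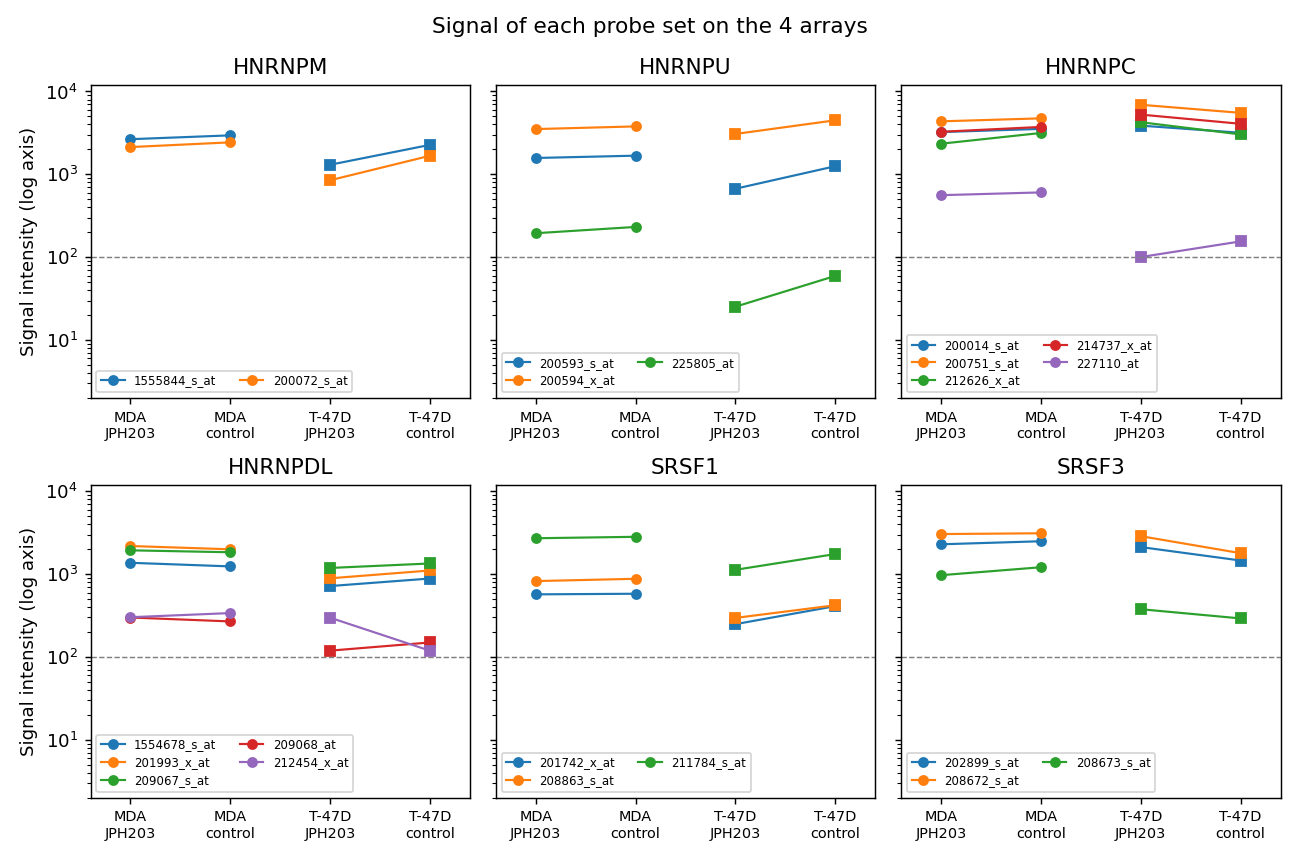
Signal intensity (log axis) on the 4 arrays for the probe sets of 6 genes that reached 100 on both arrays of a line, each line joining JPH203 and control within a cell line, with the minimum of 100 dashed. The HNRNPM, HNRNPU and SRSF1 readings were all lower with JPH203 in T-47D, the SRSF3 readings were all higher (2 of 3 lie below 1 with poly-A scaling), and 1 reading each of HNRNPC (ratio 0.647) and HNRNPDL (2.50) went against the others of its gene.

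HNRNPK, which binds cytidine-rich RNA, had 1070.1 with JPH203 and 1652.6 in the control of T-47D at 200097_s_at (0.648) and 3423.3 and 3955.8 at 200775_s_at (0.865). HNRNPR had ratios of 0.734 and 0.862. In the F/H group, whose members bind runs of guanine, HNRNPF had 609.6 with JPH203 and 968.6 in the control (0.629). Its relatives HNRNPH1 and HNRNPH3 did not share this, with 3 probe sets at 1.04 to 1.19 and 4 at 0.991 to 1.24. A probe set left out of the comparisons, 201132_at, names HNRNPH2 together with RPL36A-HNRNPH2. It had 695.2 with JPH203 and 1288.7 in the control (0.539). In the L group, whose members bind CA repeats, HNRNPL had 0.864 and 1.17 at its 2 probe sets, and HNRNPLL 1.12.

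HNRNPC had the widest split after HNRNPDL, with a span of 1.12 on the log2 scale. Of its 5 compared probe sets, 4 were above the control in T-47D, at 1.22 to 1.40, the last being 212626_x_at with 4259.5 and 3034.9. Against these, 227110_at had 100.5 with JPH203 and 155.3 in the control (0.647). The files do not place the probes on transcripts, so which HNRNPC transcript each one reads is not known here.

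Among SR proteins in T-47D, SRSF3 and SRSF1 stood at opposite ends. SRSF3 had 2871.8 with JPH203 and 1790.2 in the control at 208672_s_at (1.60), the highest ratio after that of HNRNPDL. At 202899_s_at it had 2120.5 and 1459.4 (1.45), and at 208673_s_at 377.2 and 292.0 (1.29). All 3 readings were thus above the control and none reached 2-fold, but with poly-A scaling they were at 1.03, 0.930 and 0.827. SRSF1 (ASF/SF2), the founding member of the family, had 249.0 with JPH203 and 410.9 in the control at 201742_x_at (0.606). At 211784_s_at it had 1127.0 and 1746.1 (0.645), and at 208863_s_at 296.1 and 421.2 (0.703).

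SRSF11, also known as p54, had 1101.2 with JPH203 and 787.8 in the control of T-47D (1.40). SRSF10 readings went both ways, with 425.0 and 302.9 at 206095_s_at (1.40) and 171.1 and 241.9 at 204299_at (0.707), a span of 0.99 on the log2 scale. SRSF7, a regulator of polyadenylation and export, had 269.9 and 218.2 at 201129_at (1.24) and 1615.5 and 2009.8 at 214141_x_at (0.804). SRSF4, SRSF5, SRSF6 and SRSF8 had ratios of 0.855 to 1.08. Every SRSF probe set lay inside the range of probe sets of similar signal, so none stood apart by that measure.

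Set side by side, some genes had ratios on opposite sides of 1 in the 2 lines, and no difference between the lines was tested. HNRNPC 212626_x_at had a ratio of 0.742 in MDA-MB-231, against 1.40 in T-47D. SRSF3 208672_s_at had 0.978 in MDA-MB-231, against 1.60 in T-47D. HNRNPM 200072_s_at had 0.877 in MDA-MB-231, against 0.506 in T-47D, below the control in both. The central 95% of all probe sets ran from 0.779 to 1.33 in MDA-MB-231 and from 0.502 to 1.96 in T-47D, so a ratio equally far from 1 was less common in MDA-MB-231.

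On the control arrays, splicing factor signals were mostly higher in MDA-MB-231. Of 63 probe sets compared, 19 (30.2%) were called higher in MDA-MB-231 than in T-47D, in 7 HNRNP and 7 SRSF genes, and 1 was called lower, beside 16.1% and 14.7% over 8194 probe sets. The median log2 ratio, MDA-MB-231 over T-47D, was 0.61 (a ratio of 1.52), beside 0.05 (1.04) over all, and 52 of 63 were above 1. It was 0.58 for HNRNP and 0.73 for SRSF probe sets. At 1.5-fold, 32 were higher and 3 lower, with backgrounds of 28.7% and 25.2%. With 1 probe set a gene, the brightest, 5 of 28 genes were called higher (1 of 19 HNRNP and 4 of 9 SRSF genes), beside 16.2% of all genes, so by that measure the HNRNP share lay below the background and the SRSF share above it. At 2-fold, scaling on the poly-A control RNAs, which adds 1.70 to every log2 ratio here, gave 60 higher and 0 lower, with 78.3% of all probe sets higher, and left 0 of 63 below 1.

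**Figure D4:**
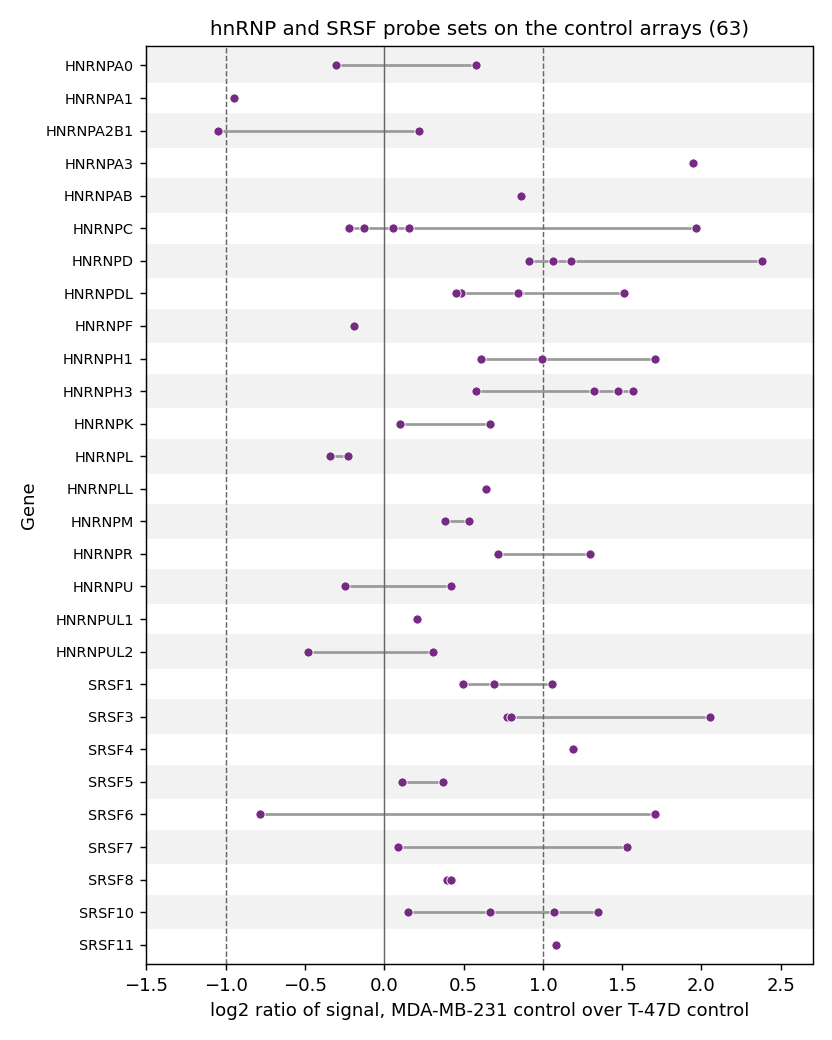
Log2 ratio of signal of the MDA-MB-231 control over the T-47D control for each of 63 probe sets, by gene (rows), with a bar joining the probe sets of a gene and dashed lines at 2-fold. Most points lie right of 0, and probe sets of 1 gene lie far apart for SRSF6 (span 2.49) and HNRNPC (2.18).

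HNRNPD 221480_at had the highest ratio, with 862.3 in the MDA-MB-231 control and 165.8 in the T-47D control (5.20). The gene's other 3 compared probe sets were at 1.88 to 2.26, so all 4 were higher in MDA-MB-231. SRSF3 208673_s_at had 1210.1 in MDA-MB-231, against 292.0 in T-47D (4.14), while its other probe sets were at 1.71 and 1.74. HNRNPC 227110_at had 605.8 in MDA-MB-231, against 155.3 in T-47D (3.90), although its other 4 were at 0.858 to 1.11. HNRNPA3 211932_at had 759.3 in MDA-MB-231, against 197.4 in T-47D (3.85). HNRNPH1 213470_s_at had 627.1 in MDA-MB-231, against 191.8 in T-47D (3.27). In HNRNPC, the gap was thus seen at 1 probe set of 5.

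Further probe sets missed the minimum on the T-47D control array, and only their levels are given. HNRNPA3 211929_at had 651.1 in the MDA-MB-231 control and 74.2 in the T-47D control. HNRNPD 229129_at had 252.5 in MDA-MB-231, against 53.5 in T-47D, and HNRNPU 225805_at had 232.1 and 59.5. No HNRNP or SRSF probe set passed the minimum in T-47D alone. Over all probe sets, too, fewer reached 100 on the T-47D control array (11546) than on the MDA-MB-231 control array (11722).

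The 1 probe set called lower was HNRNPA2B1 225932_s_at, with 429.4 in the MDA-MB-231 control and 889.6 in the T-47D control (0.483, and 1.57 with poly-A scaling), while 205292_s_at of that gene was at 1.16. HNRNPA1, with 506.4 in MDA-MB-231, against 979.0 in T-47D (0.517), and SRSF6 206108_s_at, with 138.5 and 238.5 (0.581), stood just outside the lower threshold. The HNRNPA1 value rests on 1 probe set. Of the probe sets that name HNRNPA1 together with pseudogenes or relatives, 200016_x_at had 7610.0 in MDA-MB-231, against 5887.8 in T-47D (1.29), and 213356_x_at had 7242.4, against 5498.3 (1.32), both in the opposite direction. Around the upper one, HNRNPD 209330_s_at and SRSF1 208863_s_at were just inside at 2.09 each, and HNRNPH1 201031_s_at (1.99) and HNRNPD 200073_s_at (1.88) just outside. SRSF6, which can favour or block exon inclusion, split the most: its other probe set, 208804_s_at, had 561.4 in MDA-MB-231, against 172.3 in T-47D (3.26).

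This disagreement between probe sets of 1 gene was wider than over genes in general. Among the 20 HNRNP and SRSF genes with 2 to 5 compared probe sets, the median span of log2 ratios between the control arrays was 0.94, against 0.31 over 1795 genes of the array. At equal numbers of probe sets, the spans were 0.62 against 0.25 with 2, 1.10 against 0.46 with 3, 1.19 against 0.64 with 4, and 1.62 against 0.56 with 5, and 17 of the 20 genes lay above the median for their number. With JPH203 the spans were close to those of other genes, at 0.27 against 0.23 in T-47D (11 of 20 above) and 0.12 against 0.16 in MDA-MB-231 (8 of 22 above). Of the 68 probe sets compared in a line, 35 end in _s_at and 15 in _x_at, which can bind more than 1 transcript, and several of these genes have processed pseudogenes. The part of probe design in the spans was not tested.

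Other genes of the splicing machinery were read at the brightest probe set of each. With JPH203, 0 were called in either line. Of all genes read in the same way, 2.20% were called higher and 2.39% lower in T-47D. In MDA-MB-231 these shares were 0.0888% and 0.0148%. Of 9 hnRNP proteins with other symbols in T-47D, 7 were below the control, with a median log2 ratio of -0.48 and with KHSRP, a decay factor that binds AU-rich elements, at 421.4 with JPH203 and 841.6 in the control (0.501). Of 18 SR-like proteins and SR kinases, 14 were below, with a median of -0.35, SON at 0.528, SRRM2 at 0.535 and PNN at 1.36. Both medians were lower than that of all genes read in the same way, -0.02, and that of the HNRNP genes, -0.30, lay between it and theirs. The 9 SRSF genes compared had a median of -0.07, nearer to that of all genes, with 5 below the control (55.6%, beside 51.7% of all genes).

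Core spliceosome genes had no such shift in T-47D, with 17 of 33 below the control and a median of -0.03, and ranged from 0.521 at SF3B3 to 1.83 at SF3B6, both parts of the U2 particle. The 5 nonsense-mediated decay genes compared, of 14 listed, had a median of -0.07. UPF2 is not among them: it had 91.1 with JPH203 and 248.8 in the control, and fell under the minimum with JPH203. In MDA-MB-231 the medians were 0.02 for the other hnRNP proteins, 0.00 for SR-like proteins and kinases and 0.01 for decay genes, and -0.13 for the core spliceosome, where 26 of 34 genes were below the control.

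Between the control arrays, some genes of the SR-like and kinase list had large gaps and others did not. SRPK1, the kinase that phosphorylates SR proteins in the cytoplasm, had 1329.4 in MDA-MB-231, against 186.8 in T-47D (7.12). TNPO3, which imports them into the nucleus, had 608.3 in MDA-MB-231, against 146.2 in T-47D (4.16). In the other direction, PNN (pinin), a nuclear protein that binds SR proteins, had 2080.9 in MDA-MB-231, against 8514.1 in T-47D (0.244). Among the hnRNP proteins with other symbols, a separate list, PCBP2, a poly-cytidine binding protein, had 1329.9 and 4250.4 (0.313). Of the 9 compared in that list, 0 were called higher and 1 lower (11.1%). Of 17 SR-like genes and kinases compared, 3 were called higher in MDA-MB-231 (17.6%) and 1 lower (5.88%). Over all genes read in the same way, 16.2% were higher and 16.1% lower. The kinases SRPK2 (0.990), DYRK1A (1.39) and CLK3 (0.609) were not called.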

How the data were processed

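Total RNA from both lines was hybridised to Affymetrix U133 Plus 2.0 arrays, 1 array for each of the 4 conditions. The authors deposited 1 signal intensity for each probe set and array, on a linear scale, made with GCOS according to the submitters' processing notes. Its version and settings are not given in the sources used here. After trimming the lowest and highest 2% of values, array means were close to 100, so values are relative to the total signal of the array. No column of values was unused.

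In the platform annotation, 41097 of the 54675 probe sets have 1 gene symbol, 1801 have several and 11777 have no entry and stay unnamed. By gene identifier, 41043 matched the RefSeq table of GRCh38.p14, and 0 symbols changed. Left out were 14 probe sets that name an HNRNP or SRSF gene together with others, and 1 that names a pseudogene. SRSF2, SRSF9 and HNRNPH2 have no probe set that names them alone and are not among the genes compared.

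Ratios of linear signals were computed with Python 3.11.15, numpy 2.4.6 and pandas 2.3.3. With 1 array a group no test was run, and the number of arrays limits the precision. Probe sets below a signal of 100 on either array were not compared. The 2-fold threshold follows the study. Alternatives were median centring, quantile normalization, loess (span 0.4), scaling on poly-A control RNAs, a pseudocount of 16, minimum signals of 50 and 200, thresholds of 1.5-fold and 3-fold, leaving out _s_at and _x_at probe sets, and the brightest probe set of each gene.

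The text names called probe sets, brightest probe sets at the ends of each family, the genes whose probe sets differ most in T-47D, the largest gaps between control arrays, the probe sets next to each threshold and, of the other splicing lists, their called or brightest genes. Other names (the 1.5-fold genes in T-47D, the probe sets outside the range of similar signal, those below the minimum and most genes of the other splicing lists) were chosen after their values were seen. The genes and lists were chosen with earlier results of these data known.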

Additional observations from a re-analysis of the deposited data

Results flagged for a closer look

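HNRNPDL 212454_x_at had ratios on opposite sides of 1 in the 2 lines. It had 301.9 with JPH203 and 338.8 in the control of MDA-MB-231 (ratio 0.891) and 297.8 and 118.9 in T-47D (2.50). The MDA-MB-231 ratio lay inside the range of probe sets of similar signal (0.783 to 1.32), and only the T-47D ratio lay outside its own (0.472 to 2.01). The log2 ratio in MDA-MB-231 minus that in T-47D was -1.49. With 1 array per condition this difference was not tested. The other 4 compared probe sets of HNRNPDL also differed in sign between the lines, in the reverse sense, at 1.06 to 1.12 in MDA-MB-231 and 0.797 to 0.883 in T-47D.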

How the results depend on the processing

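No paired analysis was possible because each condition had 1 array, and for the same reason no array could be left out. Counts, medians and single ratios were recomputed under each alternative, and of the counts and medians 69 stayed within 1.5-fold with the same sign, 23 moved further and 1 changed sign. Among the 69, the median log2 ratio in T-47D, -0.174, still came nearer to that of no change, at -0.0887 with quantile normalization and -0.0812 with loess. In T-47D with JPH203 the count of higher probe sets, 1, became 0 with poly-A scaling, with a minimum of 200, without _s_at and _x_at probe sets, with the brightest probe sets and at 3-fold, and 2 at 1.5-fold. At 1.5-fold, 11.2% of all probe sets were higher. The count of lower ones, 0, became 1 with quantile normalization, 2 with loess, 20 with poly-A scaling and 12 at 1.5-fold. Of all probe sets, 1.57%, 1.63%, 26.1% and 13.8% were lower with these settings, in the same order. In MDA-MB-231 the count of higher ones, 0, became 1 at 1.5-fold, beside 0.628% of all probe sets. Between the control arrays the count higher in MDA-MB-231, 19 of 63, became 60 with poly-A scaling, 32 at 1.5-fold and 6 at 3-fold. Of all probe sets, 78.3%, 28.7% and 6.2% were higher with these settings, in the same order. Without _s_at and _x_at probe sets, 5 of 14 were higher, beside 17.6% of all. With the brightest probe sets, 5 of 28 genes were higher, beside 16.2% of all genes. The count lower, 1, became 3 at 1.5-fold and 0 with poly-A scaling, without _s_at and _x_at probe sets, with the brightest probe sets and at 3-fold. Of all probe sets, 25.2% were lower at 1.5-fold, 0.818% with poly-A scaling, 15% without _s_at and _x_at probe sets and 5.82% at 3-fold. Poly-A scaling turned the median log2 ratio in MDA-MB-231, -0.067, to 0.043. It also moved the median to -0.82 in T-47D and to 2.31 between the control arrays, and the log2 ratio of HNRNPDL 212454_x_at to 0.68. That scaling divides every ratio of a comparison by 1 factor, and stricter settings leave fewer probe sets. The cause of the other changes was not tested. Signals near 100 limit what the dimmer probe sets can show.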

Other observations

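The 14 probe sets that name an HNRNP or SRSF gene together with other genes were kept out of the comparisons. In MDA-MB-231, 12 of them could be compared, with ratios of 0.842 to 1.29 (median 0.909). In T-47D, 11 could be compared, with ratios of 0.539 to 1.12 (median 0.742). None was called in either line.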
